A study of Mus musculus with 4 samples.

Results

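The integrins of stromal cells described here are 10 of the 45802 gene symbols in a table of total RNA sequencing of mouse periosteal cells. They were chosen by symbol and comprise 7 α subunits (*Itga1*, *Itga4*, *Itga5*, *Itga6*, *Itga8*, *Itga11* and *Itgav*) and 3 β subunits (*Itgb1*, *Itgb3* and *Itgb5*). All 10 had a value in each of the 4 libraries, so that none was lost among the 14415 genes tested, and 8 of them had a mean log2 signal of at least 0. Periosteum, the outer covering of bone, was taken from the hindlimbs of male PDGFRα-mTmG mice of 9 to 10 weeks. Both populations came from animals that carried the *Pdgfra*-driven CreER and the mT/mG reporter, received tamoxifen at 150 mg/kg daily for 5 d and were used 14 d afterwards. The pooled cells of 3 to 6 mice per population, a number for which the labels and the study's methods differ and the labels are followed, were grown for 1 passage with 10 ng/mL bFGF, a basic fibroblast growth factor, before sorting. PDGFRα reporter+ cells were CD31-CD45-Ter119- and mGFP+, whereas PDGFRα reporter- cells were CD31-CD45-Ter119- and mTdtomato+. The label records Cre activity driven by the *Pdgfra* promoter when tamoxifen was given, rather than PDGFRα at the time of sorting.

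Integrins are cell surface receptors made of an α and a β chain, which link the extracellular matrix outside the cell to the actin cytoskeleton inside it. The β1 chain pairs with many α chains, and the α chain sets most of the ligand choice: α1 and α11 bind collagens, α6 binds laminins, α5 and α8 bind matrix proteins through the tripeptide RGD, and α4 binds fibronectin and VCAM1. The αv chain joins several β chains, among them β1, β3, β5 and β8, to bind vitronectin, osteopontin, fibronectin and the latent form of TGF-β. In skeletal stroma these receptors are known for anchorage to matrix, migration and the sensing of mechanical load.

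Each population had 2 libraries. Table headings number them 2 and 3, whereas the sample labels use 1 and 2, so libraries are named here by population and heading number. Whether libraries with the same heading number came from the same mice is not written in the labels. The paper reports both fractions for each pooled sort, but does not link those sorts to the heading numbers. The authors deposited log2 signals after quantile normalization, from -10.07 to 11.73, without stating the linear quantity. The sequencing depth is therefore unknown, no counting error can be given, and levels are compared within a gene only, apart from sums over marker lists. In such a sum of linear signals, the genes with the highest signal weigh most. The log2 signals of libraries with the same heading number had a correlation of 0.984 (number 2) and 0.982 (number 3) over genes, which do not count as replicates. Libraries of the same population had 0.952 (PDGFRα reporter+) and 0.957 (PDGFRα reporter-). Of 12 stromal marker genes, 12 had a value in every library, with 5 higher and 7 lower in mean in PDGFRα reporter+ cells. The matrix proteoglycan genes *Lum* and *Dcn* had log2 fold changes of 1.83 and 1.39 without overlap of the populations, and *Ly6a*, the gene of the surface antigen Sca-1, had -0.21, also without overlap. *Pdgfra* itself had log2 signals of 7.78 and 7.62 in PDGFRα reporter+ cells and of 7.87 and 7.44 in PDGFRα reporter- cells. With 2 libraries against 2, an exact two-sided permutation test cannot go below a p of 0.333 for a single gene, so that genes were tested with limma across the whole table. The p-values rest on the spread between these libraries of pooled mice, moderated in limma toward a trend over all genes. They do not measure variation between single mice. Without a block, that spread includes the difference between heading numbers.

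Promoters are shown for 3 members: *Itga11* and *Itga8*, which differed most between heading numbers and in opposite directions, and *Itgb5*, which did not differ in mean between the populations. The 250 bases upstream of the RefSeq start (GRCm38.p6) are written 5′ to 3′ on the strand of the gene, with capitals at matches to the motifs searched. The *Itga11* window lies at chr9:62677605-62677854 on the plus strand, the *Itga8* window at chr2:12301945-12302194 on the minus strand and the *Itgb5* window at chr16:33829415-33829664 on the plus strand.
Itga11: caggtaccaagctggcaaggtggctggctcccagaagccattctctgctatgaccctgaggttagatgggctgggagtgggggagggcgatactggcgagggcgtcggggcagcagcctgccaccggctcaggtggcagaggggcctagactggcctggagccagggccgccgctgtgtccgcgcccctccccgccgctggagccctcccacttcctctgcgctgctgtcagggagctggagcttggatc
Itga8: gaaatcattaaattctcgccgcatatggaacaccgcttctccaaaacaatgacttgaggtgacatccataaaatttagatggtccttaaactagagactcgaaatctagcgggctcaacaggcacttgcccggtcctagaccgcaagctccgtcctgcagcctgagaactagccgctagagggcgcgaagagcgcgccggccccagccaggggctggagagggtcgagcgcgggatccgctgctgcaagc
Itgb5: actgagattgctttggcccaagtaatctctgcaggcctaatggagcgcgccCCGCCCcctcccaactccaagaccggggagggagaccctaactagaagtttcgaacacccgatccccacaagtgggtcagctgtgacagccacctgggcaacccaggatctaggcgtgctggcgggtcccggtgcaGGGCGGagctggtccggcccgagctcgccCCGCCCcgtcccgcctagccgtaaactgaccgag

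The motifs searched on both strands were the AP-1 motif TGAGTCA, the GC box GGGCGG, the E-box CACGTG, the TATA box TATAAA and the TEAD motif GGAATG, and no match overlapped another motif. Of the 8 members with a promoter in the RefSeq table (*Itga6* and *Itgb3* have no entry), *Itga4*, *Itga5*, *Itgb1* and *Itgb5* held the GC box. Among all 32851 promoters of the table, 32.7% held it. The *Itgb5* window had 3 matches, which begin 199, 63 and 34 bases before the start. *Itgb1* also had the TEAD motif, held by 12.6% of all promoters. The letters of the AP-1 motif (4.46% of all promoters), the E-box (6.02%) and the TATA box (12.4%) were found in none of the 8 windows. The windows of the members were rich in G and C, with a median of 64.2% and a range from 55.6% to 68.4%, compared with a median of 52.4% over all promoters.

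The question put to the 10 integrins was whether PDGFRα reporter+ and PDGFRα reporter- cells differ in their receptors for the matrix. No member passed the test used here, limma with adjustment over all genes. The paper lists *Itga6* and *Itgb3* among its genes significantly lower in PDGFRα reporter+ cells, and mentions no adjustment over genes. The log2 fold change (mean of PDGFRα reporter+ minus mean of PDGFRα reporter-) ran from -0.66 for *Itga8* to 0.62 for *Itga4*, with 6 members lower and 4 higher in mean. The median was -0.08, beside -0.0035 over all genes tested. With limma and Benjamini-Hochberg adjustment, the adjusted p was under 0.05 for 0 of 10 members, beside 0% of the 14415 genes. The unadjusted p was under 0.05 for 0 of 10 members, beside 131 genes (0.909%). With heading number as a block in limma, these counts were 0 of 10 (0.201% of all genes) and 2 of 10 (6.33%), the latter being *Itga6* and *Itgb3*. The populations overlapped for each of the 10 members, whereas they did not overlap for 15.7% of all genes. PDGFRα reporter+ cells lay above PDGFRα reporter- cells for 7.59% of the table and below them for 8.1%. Within both heading numbers, 5 members were lower in PDGFRα reporter+ cells (*Itga5*, *Itga6*, *Itga8*, *Itgav* and *Itgb3*), compared with 24.8% of all genes. *Itga1* was the member that was higher within both, compared with 22.1%. Together, 6 of 10 members had the same direction in both numbers, compared with 46.8% of all genes. These members were chosen with results of these data known, and the counts carry no test.

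**Figure D1:**
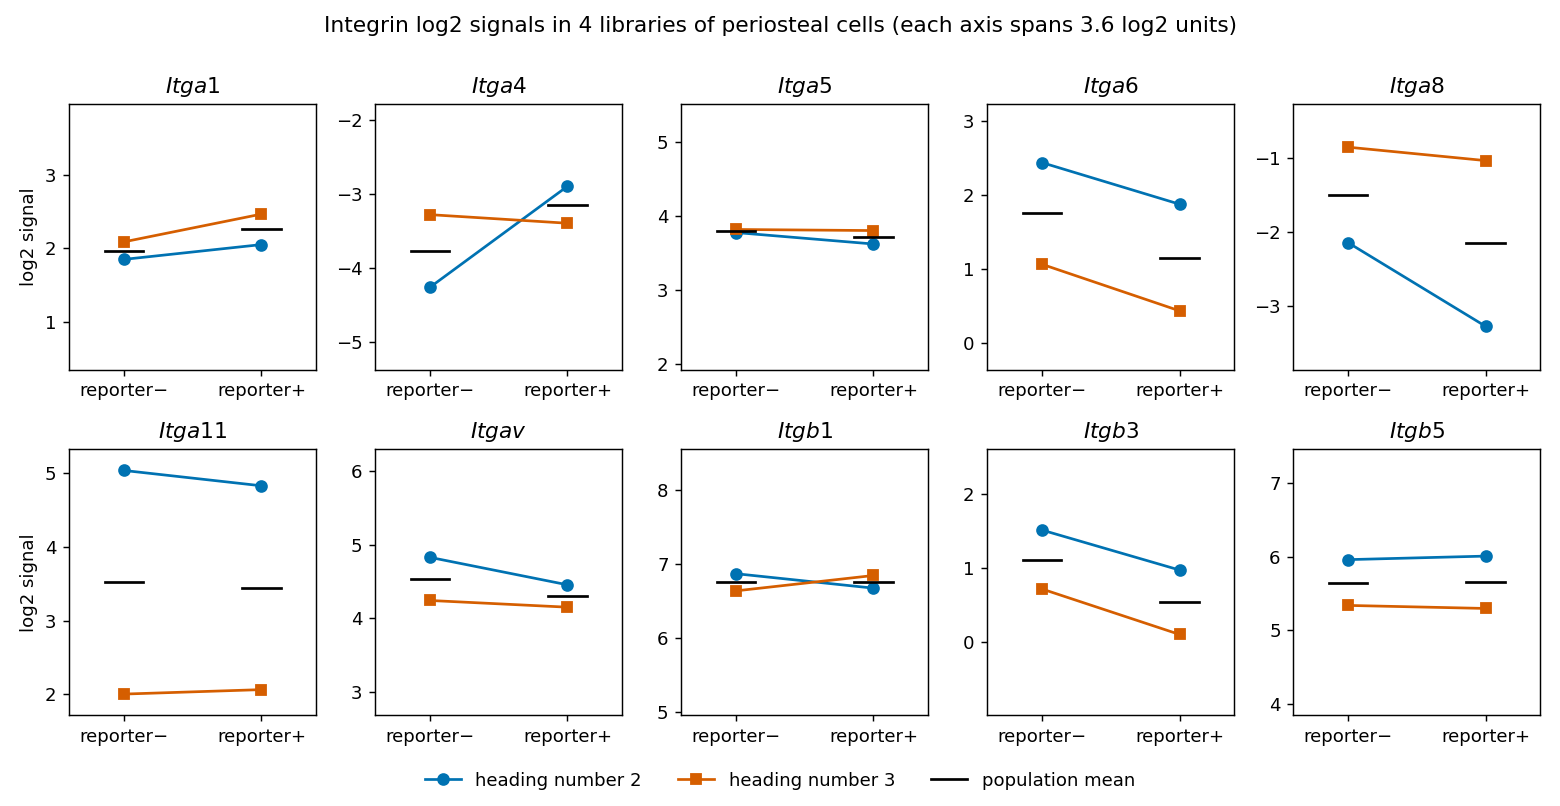
Log2 signal of each integrin (vertical axis, of equal span in every panel) in PDGFRα reporter- and PDGFRα reporter+ cells, with points for single libraries, lines joining libraries of the same heading number and bars at the population means (n = 2). The lines of *Itga6* and *Itgb3* slope down in parallel, and *Itga11* is separated by heading number, at 4.82 and 5.03 in number 2 and at 2.07 and 2.01 in number 3.

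*Itga6* encodes the α chain of laminin receptors, which joins β1 or β4. Its log2 signals were 1.88 and 0.44 in PDGFRα reporter+ libraries 2 and 3, and 2.44 and 1.07 in PDGFRα reporter- libraries 2 and 3. Each PDGFRα reporter+ library was below its PDGFRα reporter- counterpart, while the populations overlapped because both libraries numbered 3 were low. The difference was -0.56 within number 2 and -0.63 within number 3. The PDGFRα reporter+ mean was 1.16 ± 1.02 (SD, n = 2), and the PDGFRα reporter- mean was 1.75 ± 0.97 (SD, n = 2). A log2 fold change of -0.60 (SE 0.69, limma 95% interval -2.44 to 1.25, adjusted p = 1) corresponds to a signal 1.51-fold lower and was smaller than the spread between libraries. With heading number as a block, the SE was 0.17 and the adjusted p was 0.353 in limma. Without PDGFRα reporter+ library 3 the log2 fold change was 0.13, and without PDGFRα reporter- library 2 it was 0.09. These settings leave the heading numbers unbalanced. *Itga6* (ENSMUSG00000027111.15) lies on chromosome 2 from 71745616 to 71858416 in GENCODE M21 on GRCm38. It has 3 protein-coding transcripts there, which the deposited values do not tell apart.

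*Itgb3*, the β3 chain that joins αv in the vitronectin receptor and that platelets and osteoclasts also carry, followed the same pattern. Its log2 signals were 0.98 and 0.11 in PDGFRα reporter+ libraries 2 and 3, and 1.52 and 0.72 in PDGFRα reporter- libraries 2 and 3. Again each PDGFRα reporter+ library was the lower of the same heading number, with differences of -0.54 in number 2 and -0.61 in number 3. For *Itgb3* the log2 fold change was -0.58 (SE 0.46, 95% interval -1.79 to 0.64, adjusted p = 1 in limma), a signal 1.49-fold lower. With heading number as a block, the SE was 0.20 and the adjusted p was 0.510 in limma. The log2 fold change stayed negative with each library left out in turn, between -1.01 and -0.14. *Itgb3* lies on chromosome 11 from 104608000 to 104670476, and no other annotated gene overlaps it.

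The αv chain itself, *Itgav*, had log2 signals of 4.46 and 4.15 in PDGFRα reporter+ libraries and of 4.83 and 4.24 in PDGFRα reporter- libraries numbered 2 and 3. Both libraries numbered 2 lay above both numbered 3, and the populations overlapped. The differences were -0.37 and -0.09 within numbers 2 and 3, for a log2 fold change of -0.23 (SE 0.26, 95% interval -0.91 to 0.45), which was 0.0607 without PDGFRα reporter- library 2. *Itgb5*, the β chain of the other vitronectin receptor, had 6.01 and 5.30 in PDGFRα reporter+ and 5.96 and 5.34 in PDGFRα reporter- libraries. Its populations were level within each heading number, with differences of 0.05 and -0.04. The log2 fold change of *Itgb5* was 0.0033 (SE 0.34), and its interval from -0.91 to 0.92 leaves room for a difference in either direction.

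*Itgb1* encodes the β1 chain, the common partner of the α chains listed here. Its log2 signals were 6.67 and 6.84 in PDGFRα reporter+ libraries 2 and 3, and 6.87 and 6.64 in PDGFRα reporter- libraries 2 and 3. All 4 libraries lay within 0.23 of each other, with no order by population or heading number. Its log2 fold change was 0.0062 (SE 0.18, 95% interval -0.49 to 0.50), made up of opposite differences of -0.20 and 0.21 within the heading numbers. *Itga5*, the α chain of the classical fibronectin receptor, was as even, with 3.62 and 3.81 in PDGFRα reporter+ and 3.78 and 3.82 in PDGFRα reporter- libraries. Its range over the 4 libraries was 0.20, the narrowest of the members, and its log2 fold change was -0.08 (SE 0.15, 95% interval -0.48 to 0.31).

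Both collagen-binding α chains of the set were followed. *Itga1*, the receptor chain for collagen IV and collagen I, had log2 signals of 2.05 and 2.46 in PDGFRα reporter+ and of 1.85 and 2.09 in PDGFRα reporter- libraries numbered 2 and 3. PDGFRα reporter+ library 3 was the highest, and PDGFRα reporter+ library 2 lay just below PDGFRα reporter- library 3. The log2 fold change of *Itga1* was 0.29 (SE 0.23, 95% interval -0.33 to 0.90, adjusted p = 1 in limma), with 0.20 and 0.37 within the heading numbers. The gene *Pelo* lies inside *Itga1* on the same strand (chromosome 13, 114953096 to 115101964 for *Itga1*) and had a log2 fold change of 0.20, so that reads shared between them cannot be told apart here. *Itga11*, a receptor chain for fibrillar collagen in fibroblasts, had 4.82 and 2.07 in PDGFRα reporter+ and 5.03 and 2.01 in PDGFRα reporter- libraries. Its log2 fold change was -0.07 (SE 1.37, 95% interval -3.73 to 3.59), with -0.21 and 0.06 within the heading numbers. The width of that interval comes with the distance between the libraries numbered 2 and 3, which lay at least 2.76 apart within each population.

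*Itga4* and *Itga8* were the members with a mean log2 signal below 0. *Itga4*, the chain that binds VCAM1 and fibronectin, had log2 signals of -2.90 and -3.40 in PDGFRα reporter+ and of -4.27 and -3.28 in PDGFRα reporter- libraries numbered 2 and 3. PDGFRα reporter- library 2 was the lowest, and the difference was 1.36 within number 2 and -0.12 within number 3. Its log2 fold change was 0.62 (SE 0.63, 95% interval -1.06 to 2.31). It was 0.13 without PDGFRα reporter- library 2, 1.11 without PDGFRα reporter- library 3 and 0.05 with a pseudocount of 1. *Itga8*, the nephronectin receptor chain known from smooth muscle and mesenchyme, had -3.27 and -1.03 in PDGFRα reporter+ and -2.14 and -0.85 in PDGFRα reporter- libraries. It was lower in PDGFRα reporter+ cells within both numbers, unevenly, by differences of -1.13 and -0.18. Its log2 fold change was -0.66 (SE 0.95, 95% interval -3.20 to 1.89), and it was 0.46 without PDGFRα reporter+ library 2 and -0.11 with a pseudocount of 1.

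**Figure D2:**
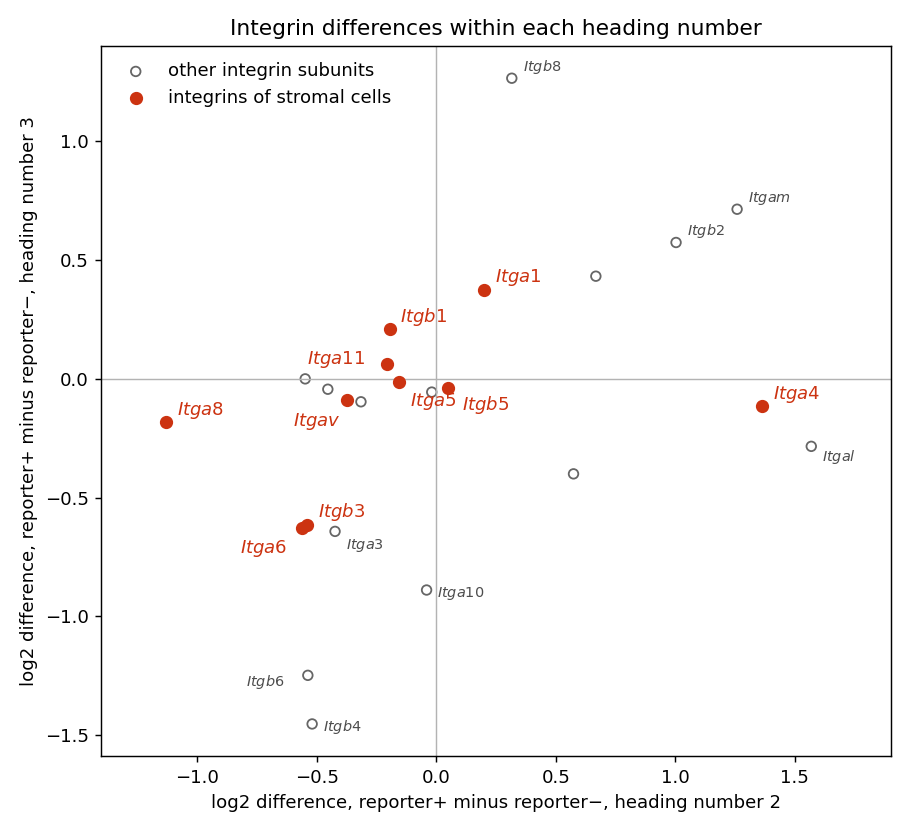
Log2 difference between PDGFRα reporter+ and PDGFRα reporter- cells within heading number 2 (horizontal axis) and heading number 3 (vertical axis), for the 10 integrins (red) and 14 other integrin subunits with a value in all libraries (open circles). *Itga6* (-0.56, -0.63) and *Itgb3* (-0.54, -0.61) lie beside each other in the lower left quadrant, and *Itga1* (0.20, 0.37) is the member in the upper right.

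Heading number separated the members more than population did. Both libraries numbered 3 lay outside the range of the libraries numbered 2 for 8 of the 10 members, all but *Itga4* and *Itgb1*, compared with 65.2% of all genes tested. The difference between numbers exceeded that between populations for 9 members, with *Itga4* as the exception, compared with 75.7% of all genes. The shares are thus near those of the whole table or somewhat above. Number 3 was lower in both populations for 5 members (32.7% of all genes) and higher in both for 3 (41.1%). The signal in number 3 was 7.42-fold lower for *Itga11* (log2 difference -2.89), 2.65-fold lower for *Itga6* (-1.41), 1.78-fold lower for *Itgb3* (-0.83) and 1.58-fold lower for *Itgb5* (-0.66). *Itgav* had a difference of -0.44 in the same direction. *Itga8* was 3.40-fold higher in number 3 (1.77), and *Itga1* and *Itga5* had differences of 0.32 and 0.11. These differences between heading numbers are descriptions without a test, as the labels do not say what the numbers stand for. Of the sum of squares over the 4 libraries, heading number took 99.7% for *Itga11*, 99.6% for *Itgb5*, 84.8% for *Itga6* and 82.6% for *Itga8*. Population took its largest shares for *Itga1* (42.2%), *Itga4* (39.1%) and *Itgb3* (32.3%). The median share of heading number over the members was 70.2%, beside 66.4% over all genes tested.

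**Figure D3:**
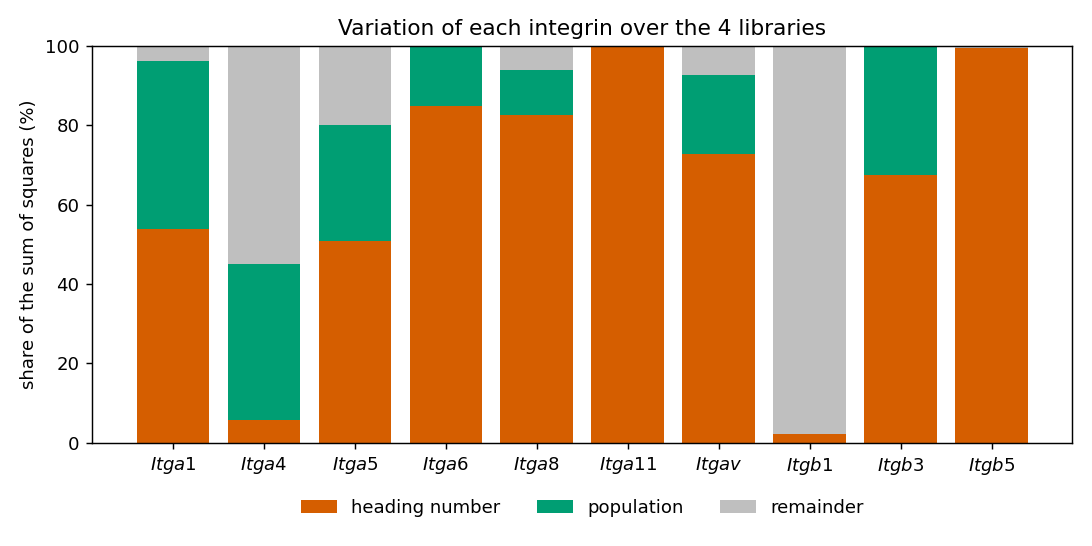
Share of the sum of squares of each integrin over the 4 libraries (vertical axis, percent) that goes with heading number, with population and with the remainder. Heading number fills 99.7% of the bar of *Itga11*, and the remainder fills 97.7% of the bar of *Itgb1*, whose 4 values lie within 0.23.

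Other integrin subunits were covered by 17 genes, of which 14 had a value in all libraries and *Itgb2l* had none in any. Their median log2 fold change was -0.12, with 6 higher and 8 lower in mean, and it was 0.02 over those with a mean of at least 0. Limma gave an adjusted p under 0.05 for 0 and an unadjusted p under 0.05 for *Itgb8*, beside 0.909% of all genes. The β8 chain, an αv partner that activates latent TGF-β, had log2 signals of 1.80 and 2.23 in PDGFRα reporter+ and of 1.48 and 0.97 in PDGFRα reporter- libraries numbered 2 and 3. Its populations did not overlap, and the log2 fold change was 0.79 (SE 0.29, adjusted p = 1 in limma). The unadjusted p was not under 0.05 for any gene of the list with a pseudocount of 1, with blanks filled or without either PDGFRα reporter+ library. *Itga3*, a further laminin-binding α chain, had differences of -0.42 and -0.64 within the heading numbers and a log2 fold change of -0.53. *Itgb4*, the β chain reserved for α6, had -0.52 and -1.45 and a log2 fold change of -0.99, at a mean log2 signal below 0; it was named after its values were seen. *Itga7*, the laminin receptor chain of muscle, had -0.45 and -0.04, also at a mean below 0 and also named after its values were seen. With the block, the unadjusted p was under 0.05 for 5 of the 14 (*Itga3*, *Itgam*, *Itgb2*, *Itgb4* and *Itgb8*), beside 6.33% of all genes, and the adjusted p for 0. Within both heading numbers 4 of the 14 were higher (*Itgae*, *Itgam*, *Itgb2* and *Itgb8*) and 8 lower, compared with 22.1% and 24.8% of all genes. Of these, *Itgam* and *Itgb2* encode a pair of leukocyte chains. *Itgb7*, also a leukocyte chain, was lower within both (-0.31 and -0.10), and *Itgal*, on the T and B cell marker list, had 1.57 and -0.28. Like *Itgae*, both were named after their values were seen. *Itgam*, the αM chain of myeloid cells, had a log2 fold change of 0.99 (1.26 and 0.71 within the numbers), and its partner *Itgb2* had 0.79 (1.00 and 0.57).

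The cells were sorted as negative for CD31 and CD45, and marker genes of other cell types were read alongside. Of 14 macrophage markers, 13 had a value in all libraries and 13 were higher in mean in PDGFRα reporter+ cells. Their summed linear signal there was 247 and 289, compared with 98.3 and 185 in PDGFRα reporter- cells. Most of each sum came from *Lyz2*, with log2 signals of 7.65 and 7.88 against 6.27 and 7.25. *Itgam* belongs to that list too. Of 9 endothelial markers with a value in all libraries, 8 were lower in mean in PDGFRα reporter+ cells. The summed signal of all 12 markers was 4.08 and 3.68, against 5.41 and 7.02 in PDGFRα reporter- cells. *Egfl7*, with a log2 fold change of -0.04, had the highest signal of the list in each library and weighs most in that sum. The CD31 gene *Pecam1* had log2 signals of -4.68 and -4.79 in PDGFRα reporter+ and of -1.99 and -1.11 in PDGFRα reporter- libraries. Smooth muscle and pericyte markers were lower in mean for 10 of 14, with summed signals of 38.9 and 39.6 against 57.8 and 55.5. Of 10 skeletal muscle markers, 4 had a value in all libraries and these 4 were lower in mean (summed signal of all 10 markers 0.62 and 0.37 against 3.04 and 0.92), and *Myf5* and *Pax7* were blank throughout. Osteoclast markers were higher in mean for 7 of 7 (of 8 listed), with summed signals of 12.6 and 20.8 against 7.26 and 4.05. Only 2 of these, *Mmp9* and *Acp5*, had a mean log2 signal of at least 0. Within both heading numbers 5 of the 7 were higher, compared with 22.1% of all genes. The median difference of the osteoclast list was 0.13 within number 2 and 2.38 within number 3. Of 8 megakaryocyte and platelet markers, *Gp1ba*, *Gp9* and *Gp6* were blank throughout, 4 had a value in all libraries and 3 of these were higher in mean, and the summed signal was 5.22 and 3.90 against 3.31 and 2.77. *Itga6* and *Itgb3* were lower in mean in PDGFRα reporter+ cells, as were most endothelial and muscle markers, while the macrophage and osteoclast markers measured in every library were higher in mean. The part of these cells in the integrin values was not tested. In bulk RNA, fewer cells of a type and less RNA per cell cannot be told apart.

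Ligands of these receptors were followed in a list of 30 matrix genes, all with a value in every library. Of these, 24 were lower and 6 higher in mean in PDGFRα reporter+ cells, and the median of the list was -0.20. Within both heading numbers 21 of the 30 were lower and 5 higher, compared with 24.8% and 22.1% of all genes. Limma gave 0 genes with an adjusted p under 0.05 (0% of the table) and *Thbs1* with an unadjusted p under 0.05 (0.909% of the table). The block gave *Thbs1* with an adjusted p under 0.05, beside 0.201% of all genes, and 10 of the 30 with an unadjusted p under 0.05, beside 6.33%. The adjusted call was lost with the block and no variance trend. *Thbs1*, thrombospondin 1, had log2 signals of 6.66 and 6.80 in PDGFRα reporter+ and of 8.19 and 7.80 in PDGFRα reporter- libraries, a log2 fold change of -1.26 (SE 0.22). The next largest log2 fold changes at a mean of at least 0 were those of *Postn*, the periostin gene (-1.14), and the basement membrane collagens *Col4a1* (-0.64) and *Col4a2* (-0.54), each lower within both numbers but more different between numbers. Fibronectin, *Fn1*, had 10.29 and 9.41 against 10.47 and 10.30, and the populations did not overlap. Osteopontin, *Spp1*, had 11.73 in both libraries numbered 2 and 11.07, to 2 decimals, in both numbered 3. As 11.73 is the top of the normalized scale, a difference in *Spp1* above it would not be seen in number 2. Vitronectin, *Vtn*, and bone sialoprotein, *Ibsp*, had the most positive log2 fold changes of the list (1.66 and 1.35), at mean log2 signals below 0, and were, like *Fn1* and *Spp1*, named after their values were seen.

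Adaptors that tie integrin tails to actin showed small differences. Of 24 genes, 23 had a value in all libraries and *Fermt1* had none. In mean, 19 were lower and 4 higher in PDGFRα reporter+ cells, and the median of the list was -0.12. Within both heading numbers 11 of the 23 were lower and 0 higher, compared with 24.8% and 22.1% of all genes. The largest log2 fold changes at a mean of at least 0 were those of *Vcl*, vinculin (-0.41, with -0.42 and -0.40 within the numbers), *Actn4*, an α-actinin (-0.39), *Tns1*, tensin 1 (-0.34), and *Pxn*, paxillin (-0.30). Limma gave 0 of the 23 with an adjusted p and 0 with an unadjusted p under 0.05, where the whole table had 0% and 0.909%. With the block, the unadjusted p was under 0.05 for these 4 genes, beside 6.33% of all genes, and the adjusted p for 0 of the 23. *Ilk*, the integrin-linked kinase, named after its values were seen, had 4.98 and 4.98 in PDGFRα reporter+ and 5.00 and 4.97 in PDGFRα reporter- libraries. A further list held 12 genes of integrin inhibition and traffic, of which 9 were lower and 3 higher in mean (median -0.10). Limma gave 0 of them with an adjusted p and 0 with an unadjusted p under 0.05 (0% and 0.909% of all genes), and with the block *Dok1* had an unadjusted p under 0.05, beside 6.33%. *Dok1*, an adaptor that competes for β tails, had the most negative value there at a mean of at least 0 (-0.36), followed by the tetraspanins *Cd81* (-0.28), *Cd151* (-0.13) and *Cd9* (-0.12).

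**Figure D4:**
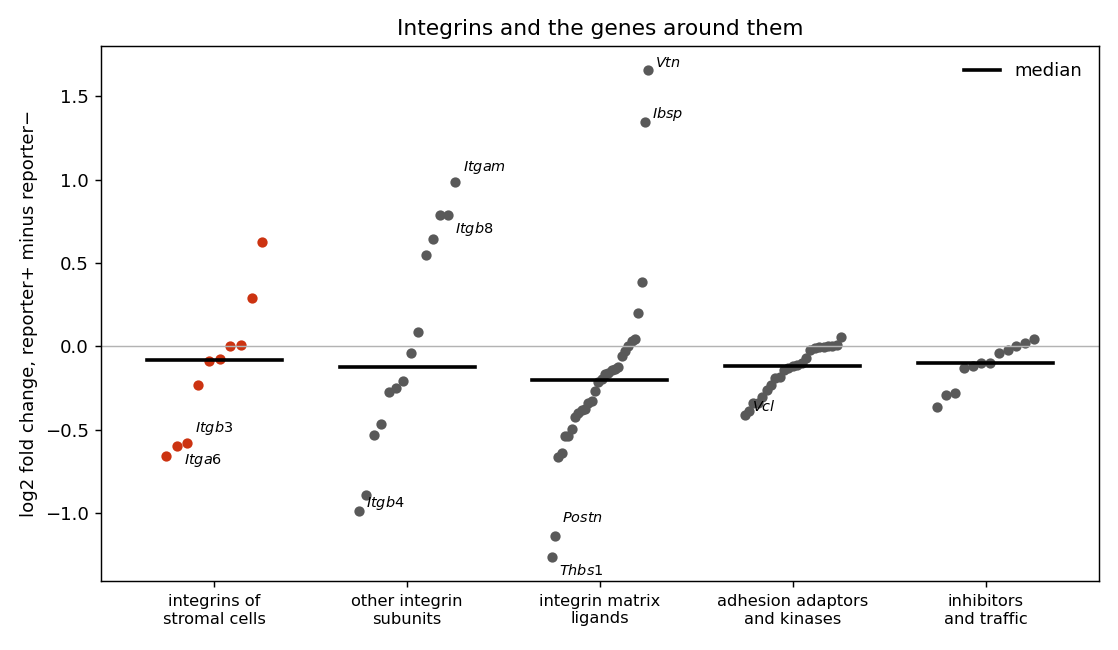
Log2 fold change between PDGFRα reporter+ and PDGFRα reporter- cells (vertical axis) for every gene with a value in all libraries in the 10 integrins and 4 lists around them, with black bars at the medians. The medians lie between -0.20 for matrix ligands and -0.08 for the integrins, and no gene shown had an adjusted p under 0.05 in limma without a block.

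The genes whose 4 centered values lay closest to those of *Itga6*, among 10223 genes with a mean log2 signal of at least 0, were *Jph2* (Euclidean distance 0.16 on the log2 scale), *Dysf* (0.17) and *Nav2* (0.18). *Itgb3* was at rank 101 from *Itga6* (0.57). For *Itgb3* they were *Cryab* (0.07), *Isl1* (0.11) and *Lrrc8c* (0.17), and *Itga6* was at rank 420 from it. *Cryab* had log2 signals of 3.70 and 2.84 in PDGFRα reporter+ and of 4.21 and 3.37 in PDGFRα reporter- libraries. With 4 libraries per profile, these are descriptions of likeness only.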

How the data were processed

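Total RNA of 4 libraries, 2 per population, was analyzed. Per the labels and methods, the authors prepared stranded paired-end libraries and sequenced them on an Illumina instrument. The submitters' processing notes name bcl2fastq 2.17.1.14, Partek 7.0 and build GRCm38.p6. The aligner, the counting, the annotation and any expression threshold are not given in the sources used here. The paper restricts its own gene count to functionally annotated genes that every sample expressed. The log2 values were deposited after quantile normalization, as 1 value per symbol and library with blanks where no signal was listed. Columns name the population and a number that is not in the labels, so libraries were assigned to a population only.

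Fold changes are differences of population means on the log2 scale, for 14415 genes measured in every library. Testing used R 4.3.3 and limma 3.58.1, two-sided, with a variance trend and without a block, and p-values were adjusted over all of these genes (Benjamini-Hochberg). The fit was run on simulated data with noise below the fitted spread and, without a block, no difference between heading numbers. That run checked the code and does not show what the test can detect in these data. Python 3.11.15 with pandas 2.3.3, scipy 1.17.1, numpy 2.4.6 and matplotlib 3.10.9 made the summaries and plots. Positions were matched by symbol in GENCODE M21 (10 of 10 members) and promoters in RefSeq (8 of 10).

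All members were named, in the marker lists genes that define the cell type, and in each other list the 4 genes with the largest absolute log2 fold change at a mean log2 value of at least 0, together with the 3 genes most like *Itga6* and *Itgb3*. Genes outside this rule are marked as named after their values were seen. Alternatives covered a block, a pseudocount of 1, a filter, filled blanks, variance models, centring and leaving out each library. The members and lists were chosen with earlier results of these data known.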

Additional observations from a re-analysis of the deposited data

How the results depend on the processing

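With all 4 libraries, the count of 0 genes with an adjusted p under 0.05 in limma held in every planned setting except the block. In these settings and with the block, 0 of the integrins tested had one. The filter on mean log2 signal kept 8 of the 10 integrins. Heading number as a replicate block gave 29 genes over the whole table. In that limma fit 2 integrins had an unadjusted p under 0.05, beside 6.33% of all genes. They were *Itga6*, with an adjusted p of 0.353 in limma, and *Itgb3*, with an adjusted p of 0.510 in limma. Among the ligands, *Thbs1* had an adjusted p of 0.0309 in the same limma fit. With the block and no variance trend, a setting chosen after seeing the data, it was 0 genes. Across genes, the differences between heading numbers in the populations had a correlation of 0.681. The labels do not say that a number pairs libraries, so the block was kept as an alternative. The paper's sorts gave both fractions from each pool. If the heading numbers stand for such sorts, the block is the fitting design. Without a block, 131 genes had an unadjusted p under 0.05 in limma. That number was 62 with the filter on mean log2 signal, 262 with blanks filled and 273 without a variance trend. In each of these, 0 of the integrins tested had one.

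Leaving out each library in turn unbalances the heading numbers. Overlap of the populations is not read in these settings, as 1 library against 2 separates more readily and no share of all genes was computed. The median log2 fold change of the integrins ranged from -0.21 to 0.11, that of the ligands from -0.30 to -0.0877, that of the adaptors from -0.18 to -0.0096, that of the inhibitors and traffic genes from -0.16 to -0.017 (without PDGFRα reporter+ library 3) and that of the other subunits from -0.55 to 0.56. Signs changed for 7 integrins: *Itga5* (-0.18 to 0.0064), *Itga6* (-1.32 to 0.13), *Itga8* (-1.78 to 0.46), *Itga11* (-1.59 to 1.44), *Itgav* (-0.52 to 0.0607), *Itgb1* (-0.11 to 0.12) and *Itgb5* (-0.35 to 0.36). *Itga1* (0.08 to 0.49), *Itga4* (0.13 to 1.11) and *Itgb3* (-1.01 to -0.14) kept their direction with sizes that moved by over 1.5 times. Over all settings 97 of 108 log2 fold changes of single integrins kept their direction, and the 11 that reversed all came with a library left out. The block, the filter, filled blanks and the variance models cannot change the fold change of these genes. The count of 97 is therefore no measure of robustness. The median of the other subunits was 0.02 over genes with a mean of at least 0 and with blanks filled, and -0.02 with a pseudocount of 1, which also took that of the inhibitors and traffic genes to -0.05. Direction within heading numbers has no value with a library left out. With unknown depth, values below 0 such as those of *Itga4* and *Itga8* have no counting error.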

Other observations

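Some integrin chains outside the 10 differed far more between heading numbers than between populations. The difference between numbers was also the larger for 75.7% of all genes tested. The genes named here were chosen after their values were seen. *Itgb7*, a β chain of leukocyte homing receptors, had log2 signals of 1.85 and 2.17 in the PDGFRα reporter+ and PDGFRα reporter- libraries numbered 2, and of -1.81 and -1.71 in those numbered 3. *Itga10*, a collagen-binding α chain known from cartilage, went from 1.99 and 2.03 to -1.04 and -0.15. *Itga9*, which binds tenascin C and VCAM1, went the other way, from 0.10 and 0.12 to 2.33 and 2.39. *Itga2*, a further collagen-binding chain, went from -2.55 and -2.01 to 0.16 and 0.16. The tetraspanin *Cd9*, a partner of integrins in the membrane, went from 7.31 and 7.48 to 5.33 and 5.40. The populations lay close together within each heading number for these genes, apart from *Itga10* in number 3 and *Itga2* in number 2.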
